A study of Mus musculus with 6 samples.

Results

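The genes of oxidative phosphorylation were examined in single lymph node cells of pregnant mice. Members were all genes of the deposited count matrix whose symbol starts with mt-Nd, mt-Co, mt-Atp or mt-Cytb, with Ndufa, Ndufb, Ndufc, Ndufs or Ndufv and a digit, with Cox4 to Cox8, with Uqcr or with Atp5, or is Sdha, Sdhb, Sdhc or Sdhd. The rule found 92 members among 14125 genes: 13 encoded by mitochondrial DNA (mt members) and 79 by nuclear DNA (nuclear members). The mt members hold 7 subunits of complex I, 1 of complex III, 3 of complex IV and 2 of complex V. By symbol, the nuclear members hold 37 genes of complex I, 4 of complex II, 8 of complex III, 13 of complex IV and 17 of complex V. The rule uses names only and no measured value.

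The cells came from 7 pregnant mice, 4 of the Aire-DTR genotype (mice 8, 36, 4 and 7) and 3 wild type (WT; mice 6, 97 and 1). In Aire-DTR mice the diphtheria toxin receptor is driven from the Aire gene, so toxin depletes cells that express Aire. Every dam of both genotypes had a BALB/c mate and received diphtheria toxin over the first 9 days of pregnancy, so no group without toxin was compared. Uterine-draining (udLN) and brachial (brLN) lymph nodes were taken at embryonic day 9.5, sorted, tagged by antibody, combined into 3 pools and measured by droplet-based 3′ RNA sequencing that counts unique molecular identifiers (UMIs). The deposited cell table marks mouse 4 as resorbed and the other Aire-DTR mice as IUGR (growth restriction). The age of the dams is not given in the sources used here, and uterine cells of pools 1 and 2 are not analysed here. The deposited annotation names 9 cell types, and 5 subsets of CD4 T cells for 850 cells.

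Oxidative phosphorylation is the mitochondrial route to ATP. Complexes I (NADH dehydrogenase) and II (succinate dehydrogenase) pass electrons through complex III (the cytochrome bc1 complex) to complex IV (cytochrome c oxidase), which reduces oxygen, and complex V (ATP synthase) uses the proton gradient that complexes I, III and IV build. Complex II is wholly nuclear-encoded, whereas the other complexes join subunits made from mitochondrial DNA in the organelle with subunits imported from the cytosol, and T cells leaving the naive state are known to remodel this machinery.

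The mt members differ in how much of their sequence other annotated genes share, since the nuclear genome holds copies of mitochondrial DNA. The ends of 2 mt transcripts are printed to show both situations, with capitals for bases inside a 31-base word that an annotated transcript of another gene also holds (GENCODE M21, GRCm38, plus strand, mt-Co2 at chrM:7607-7696 and mt-Atp8 at chrM:7880-7969):
mt-Co2: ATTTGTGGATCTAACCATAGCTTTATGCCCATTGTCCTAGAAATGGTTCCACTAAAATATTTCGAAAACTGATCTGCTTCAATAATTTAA
mt-Atp8: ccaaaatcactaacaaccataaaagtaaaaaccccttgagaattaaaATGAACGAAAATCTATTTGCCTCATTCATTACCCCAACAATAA
In mt-Co2, a core subunit of complex IV, 90 of the 90 bases shown lie in shared words, and 100% of the words of the whole transcript are shared, most with the predicted gene Gm28661. In mt-Atp8, a subunit of complex V, 43 of the 90 bases shown are shared, and its shared words are held by mt-Atp6, which overlaps it on the mitochondrial genome, and by the gene Gm10925. Over all cells mt-Atp8 had 85518 UMIs and mt-Co2 had 72.

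4 mt members had too few UMIs to be tested between cell types, and in each of them nearly all words were shared: mt-Nd3 (6 UMIs, 98.1% of words), mt-Co2 (72 UMIs, 100%), mt-Co3 (63 UMIs, 99.9%) and mt-Atp6 (64 UMIs, 99.5%). Gm28438, the gene that shares most words with mt-Nd3, had 1893 UMIs in the matrix. mt-Nd4l did not follow this pattern, since 98.9% of its words were shared and it had 4195 UMIs. The other tested mt members had 104619 (mt-Co1), 62528 (mt-Cytb), 39141 (mt-Nd1), 31526 (mt-Nd2), 14367 (mt-Nd5), 8829 (mt-Nd4) and 3803 UMIs (mt-Nd6), with 0% (mt-Nd1) to 63.9% (mt-Co1) of their words shared. These totals are not scaled by transcript length and are no ranking of expression. Of the last 300 words of the transcript, 100% were shared for mt-Co1 and 37.3% for mt-Nd2. By this measure mt-Co1, with 104619 UMIs, did not follow the pattern either, and its level is uncertain. Whether shared words led to the low counts of the 4 untested members was not tested. A statement on mt members therefore rests on 9 of 13 genes, led by mt-Co1 (29.5% of their UMIs), mt-Atp8 (24.1%) and mt-Cytb (17.6%).

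**Figure D1:**
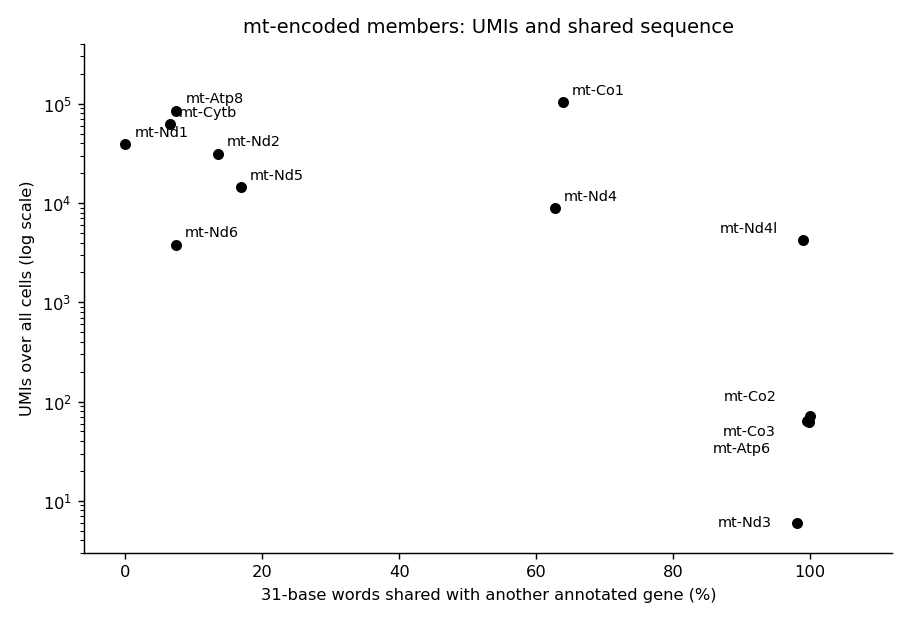
UMIs over all cells (log axis) against the percentage of 31-base words shared with another annotated gene, for the 13 mt members. mt-Nd3, mt-Co2, mt-Co3 and mt-Atp6 lie at 98.1% to 100% shared words with 6 to 72 UMIs, while mt-Nd4l has 4195 UMIs at 98.9%.

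Of the nuclear members, 76 of 79 were tested between cell types. Cox4i2 and Cox6b2, tissue-restricted forms of complex IV subunits, had 9 and 18 UMIs, and Atp5s had 152. Among nuclear members named below, the last 300 words of the transcript are mostly shared for Cox5a (80.7%), Atp5h (76.7%), Cox7c (67.7%) and Atp5o (60.7%), so their levels are uncertain. None of these end words is shared for Cox7a2l, Cox8a and Uqcr10.

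The matrix held 9427 rows, but all 2127 cells of 1 well of pool LN were in it 2 times with identical counts, so 7300 distinct cells with 22833288 UMIs were used. The mt members made up 1.55% and the nuclear members 2.11% of these UMIs. Mice gave 406 to 1495 cells. Barcodes found in more than 1 well numbered 208. Markers fitted the deposited names: Cd79a was at 4711 counts scaled to a library of fixed size (CPM) in B cells and 7.40 to 14.1 CPM in the naive and memory T types, and Cd8b1 was at 1915 CPM in CD8+ Naive T against 53.2 CPM in CD4+ Naive T. CD4+ Mem T also held Cd8b1 (242 CPM) and the Treg factor Foxp3 (121 CPM). The sample labels name CD3+ cells while the design text names CD45+ cells only, and 2267 cells carried the B cell name. P-values below weigh a difference against the spread left among sums of these mice after a mouse or pool term. Sums over cells cannot tell fewer transcripts per cell from a larger total of other RNA.

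Against CD4+ Naive T, the mt and nuclear shares of UMIs differed in opposite directions on average in CD4+ Mem T and B cells. In CD4+ Naive T cells the mt members took 1.41% to 1.61% of UMIs (median 1.454%, n = 7 mice) and the nuclear members 1.964% to 2.16% (median 2.07%). In CD4+ Mem T cells, which have met antigen, the mt share was 1.29% to 1.57% (median 1.44%) and the nuclear share 2.11% to 2.63% (median 2.41%). The nuclear share was thus higher in memory than in naive CD4 cells in 7 of 7 mice, by 0.327 percentage points on average (SD 0.110), while the mt share was lower in 6 of 7 (mean difference -0.0506, SD 0.0486).

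The number of mt UMIs per nuclear-member UMI does not depend on what else a cell expresses. It set CD4+ Mem T and B cells apart from CD4+ Naive T, but did not order the other types. It was 0.696 to 0.754 (median 0.716) in CD4+ Naive T and 0.563 to 0.682 (median 0.587) in CD4+ Mem T, without overlap between the mice of the 2 types. In B cells it was 0.828 to 0.924 (median 0.874), above every CD4+ Naive T value. The highest values of CD4+ Treg (0.846) and CD8+ Mem T (0.839) reached into the B cell range. B cells combined the highest mt share of the 6 tested types (1.60% to 1.86%, median 1.696%) with the lowest nuclear share (1.88% to 2.09%, median 1.94%), and both differences from CD4+ Naive T had the same sign in 7 of 7 mice. CD8+ Naive T (0.723 ± 0.0400, SD, n = 7), CD8+ Mem T (0.732 ± 0.0609, n = 6) and CD4+ Treg cells (0.695 ± 0.0754, n = 6) lay beside CD4+ Naive T (0.720 ± 0.0213). In the CD8 lineage memory was above naive in 4 of 6 mice. In CD4+ Treg cells both shares were higher than in CD4+ Naive T on average. The mt share was higher by 0.0407 percentage points (SD 0.0730, 4 of 6 mice), with the largest difference, 0.175, in mouse 8. The nuclear share was higher by 0.141 (SD 0.0985, 5 of 6). In CD8+ Naive T the mean differences were 0.0320 (mt, SD 0.0447, 6 of 7 mice) and 0.0370 (nuclear, SD 0.0515, 4 of 7), each smaller than its SD. These shares are given as values without a test.

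**Figure D2:**
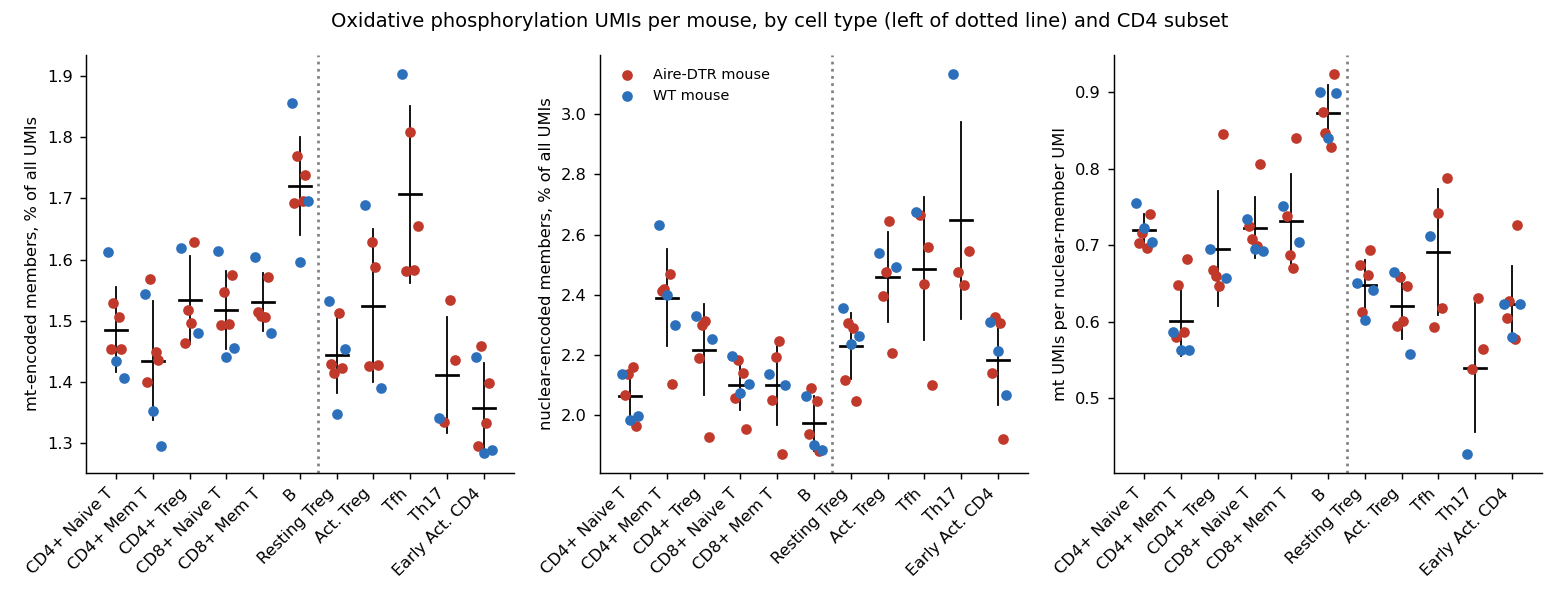
Percentage of UMIs from mt members (left), from nuclear members (middle) and mt UMIs per nuclear-member UMI (right) in each mouse, for 6 cell types and, right of the dotted line, 5 CD4 subsets. Points are mice, horizontal bars means and vertical bars SD; B cells lie highest for the ratio (mean 0.873) and Th17 cells lowest (mean 0.540).

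Other shares moved with these. The 122 cytosolic ribosomal protein genes took 36.0% ± 0.797 of UMIs in CD4+ Naive T, 28.6% ± 0.776 in CD4+ Mem T, 28.5% ± 0.632 in B, 38.1% ± 0.432 in CD8+ Naive T and 39.9% ± 0.887 in CD8+ Mem T cells (SD, n = 6 or 7). Their part in the member shares was not tested. The haemoglobin gene Hbb-bs was at 593 CPM and 861 CPM in CD4+ Naive T cells of pools 1 and 2 and at 7.09 CPM in pool LN, where the nuclear share was 1.97%, 2.04% and 2.15% in that order. The pools hold different mice, and the labels give far fewer cells loaded per well in pool LN than in pools 1 and 2. Pool, loading and mouse therefore cannot be told apart there. Rarer types were pooled over mice, with exact 95% binomial intervals that cover counting error only: NK cells had an mt share of 1.22% (1.17 to 1.26) and a nuclear share of 2.62% (2.56 to 2.69), gamma delta T cells 1.42% (1.37 to 1.47) and 2.19% (2.12 to 2.25), and myeloid cells 0.946% (0.911 to 0.982) and 1.959% (1.91 to 2.01).

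Single genes were tested on sums per mouse with edgeR's quasi-likelihood test and Benjamini-Hochberg adjustment over all genes tested (threshold 0.05). TMM scaling was used, which sets the bulk of genes equal between sums. Scaling by total UMIs instead moved the median of all genes up by 0.21 (log2) in CD4+ Mem T against CD4+ Naive T, 0.12 in CD4+ Treg, 0.22 in Act. Treg, 0.18 in Tfh and 0.16 in Th17, and by under 0.1 in the other comparisons of types, subsets, nodes or genotypes. Log2 differences below are on the TMM scale, hence relative to the typical gene.

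Memory and naive CD4 T cells were compared first. Relative to the typical gene, 7 of 9 tested mt members were lower in CD4+ Mem T cells, where 10.6% of all genes tested were lower, and 0 were higher, where 11.2% of all were. By total UMIs, 2 of the 9, mt-Atp8 and mt-Nd2, were lower and 0 higher, where 5.05% of all genes tested were lower and 25.2% higher. Among the 76 nuclear members, 10 were higher and 7 lower with a median of 0.03 (all genes -0.01), and by total UMIs 39 were higher and 1, Cox7a2l, was lower, with a median of 0.24 (all genes 0.20). The direction of the members as a group therefore rests on the scaling, whereas the ratio of mt to nuclear UMIs does not.

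Among mt members, mt-Atp8 ranged over 3590 to 4400 CPM (median 3826) in CD4+ Naive T and 2722 to 3393 CPM (median 3156) in CD4+ Mem T (TMM-scaled levels). The groups did not overlap, each of the 7 mice had less in memory cells, and the log2 difference was -0.34 (SE 0.03, adjusted p = 1.47e-13, edgeR). mt-Nd2, a proton-pumping subunit of complex I, was at 1206 to 1587 CPM (median 1261) in naive and 844 to 1313 CPM (median 975) in memory cells, and was lower in 7 of 7 mice although the ranges overlapped (-0.36, SE 0.04, adjusted p = 5.28e-11). mt-Co1, the catalytic subunit of complex IV (-0.21, adjusted p = 4.52e-07), mt-Nd1 (-0.22, 4.93e-05), mt-Cytb, the only mt-encoded subunit of complex III (-0.16, 0.000285), mt-Nd4l (-0.36, 0.00641) and mt-Nd5 (-0.21, 0.0154) were lower on this scale by edgeR. mt-Co1, mt-Nd5 and mt-Cytb were not lower by total UMIs (log2 differences 0.0013, 0.0042 and 0.052), and mt-Nd1 (-0.0032) and mt-Nd4l (-0.15) no longer passed. mt-Nd4 (-0.17, adjusted p = 0.122) and mt-Nd6 (-0.16, adjusted p = 0.345) did not pass in edgeR with TMM.

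The nuclear members called in CD4 memory cells, 10 higher and 7 lower of 76, belonged to complexes I, III, IV and V. Of all genes tested 11.2% were higher and 10.6% lower, so these counts are not read as a trait of the members. Complex II had only 4 genes tested. In complex I, Ndufb8 (0.29), Ndufc2 (0.29) and Ndufa13 (0.26) were higher, while Ndufv1, which carries the NADH-binding site (-0.46), Ndufa6 (-0.34) and Ndufa2 (-0.25) were lower. In complex III the small subunit Uqcr10 was higher in 7 of 7 mice (197 to 264 CPM, median 238, in naive and 223 to 380 CPM, median 299, in memory cells, log2 difference 0.34, SE 0.08, adjusted p = 0.000711 by edgeR), while Uqcrh, the hinge protein, was lower (-0.21). In complex IV, Cox5b (0.26), Cox6c (0.25) and Cox6b1 (0.20) were higher, and Cox7a2l (-0.67) and Cox4i1 (-0.12) were lower. In complex V, Atp5g3, a gene for the c subunit of the membrane ring (0.23), was higher in 7 of 7 mice and Atp5b, the catalytic beta subunit (-0.21), was lower. These log2 differences passed edgeR's test with adjusted p of 3.9e-11 (Cox7a2l) to 0.0372 (Cox4i1). By total UMIs Uqcrh, Cox4i1 and Atp5b were no longer lower (0.0026, 0.092 and 0.0074). Of the other settings, 10 of 15 lost the call of Cox4i1, 6 that of Ndufb8, and 5 each those of Ndufc2, Cox6b1 and mt-Nd5.

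CD8 memory cells did not show the same shift. Against CD8+ Naive T, 3 of 9 mt members were higher in CD8+ Mem T (5.78% of all genes tested were higher) and 0 lower (3.76% of all), and 4 of 76 nuclear members were higher and 1 lower. mt-Co1 was at 4537 to 5395 CPM (median 5029) in naive and 5250 to 6214 CPM (median 5552) in memory cells. It was higher in 6 of 6 mice, with overlapping ranges (log2 difference 0.14, SE 0.03, adjusted p = 0.00179 by edgeR). mt-Nd5 (0.22, adjusted p = 0.0175) and mt-Nd2 (0.13, 0.0322) were also higher by edgeR, with mt-Nd2 higher in 6 of 6 mice but its call lost in 9 of 14 other settings and that of mt-Nd5 in 5. By total UMIs none of the 3 passed (mt-Co1 0.07, mt-Nd5 0.16, mt-Nd2 0.06), and mt-Atp8 was lower (-0.10, adjusted p = 0.0179). The nuclear members that rose were Cox6b1 (0.28), Ndufa3 (0.24), Atp5e (0.16) and Cox4i1 (0.16), and Cox7a2l fell (-0.26, adjusted p = 0.0188); none of the 4 that rose passed by total UMIs. By that scaling 3.99% of all genes tested were higher and 5.59% lower. The calls of Ndufa3 and Cox4i1 were lost in 7 of 14 other settings each and that of Atp5e in 6.

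The difference between the lineages was tested as the CD4 memory difference minus the CD8 memory difference, a contrast chosen after the values were seen. It was negative for 7 of 9 mt members (6.08% of all genes tested were negative and 4.8% positive) and for 6 of 76 nuclear members, and positive for 0. mt-Nd2 (-0.49, SE 0.06, adjusted p = 3.16e-10), mt-Co1 (-0.36, SE 0.05, adjusted p = 1.07e-08) and mt-Atp8 (-0.31, SE 0.05, adjusted p = 5.49e-07) had the smallest p by edgeR. This contrast moved more than others with the scaling. By total UMIs the median of all genes shifted by 0.29, the mt members gave 1 positive and 1 negative call, and the nuclear members 23 positive and 0 negative, where 17.5% of all genes were positive and 3.4% negative. Ndufa3 and mt-Cytb lost their calls in 11 of 14 other settings each, and mt-Nd2 in 0. With DESeq2's size factors used in edgeR, 6 mt members and 5 nuclear members were negative and 0 positive.

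Naive cells of the 2 lineages also differed. CD8+ Naive T had more of 4 of 9 mt members and 8 of 76 nuclear members than CD4+ Naive T (8.18% of all genes tested were higher), and less of 0 members (7.73% of all were lower). The median nuclear difference was 0.09 (all genes -0.01). Cox8a had the smallest p: it ranged over 663 to 837 CPM (median 729) in CD4+ Naive T and 850 to 1048 CPM (median 967) in CD8+ Naive T, without overlap, and was higher in 7 of 7 mice (log2 difference 0.34, SE 0.04, adjusted p = 1.33e-11 by edgeR). Cox5b (0.28) and Cox7b (0.20) of complex IV, and Ndufa12 (0.33), Ndufb10 (0.27) and Ndufb2 (0.27) of complex I were higher as well. mt-Nd1 (0.20, adjusted p = 1.23e-05), mt-Nd2 (0.17, 5.20e-05), mt-Co1 (0.12, 0.00198) and mt-Nd5 (0.16, 0.0466) were the mt members that passed in edgeR. By total UMIs 4 nuclear members passed, 3 of them higher (6.04% of all genes higher and 11.5% lower). Of the mt members 2, mt-Nd1 among them, were still higher, and mt-Cytb was lower (-0.10, adjusted p = 0.00674 by edgeR).

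B cells showed the largest number of called members. Against CD4+ Naive T, 8 of 9 mt members were higher and 0 lower, and 10 of 76 nuclear members were higher and 25 lower. Among all genes tested 24.3% were higher and 23.8% lower, so the nuclear count in each direction is read against those shares. The median was 0.21 over mt members and -0.09 over nuclear members, against 0.02 over all genes. By total UMIs 9 mt members were higher, and 12 nuclear members were higher and 21 lower (26.1% and 22.5% of all).

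In B cells mt-Nd1 was at 1822 to 2346 CPM (median 2053) against 1391 to 1818 CPM (median 1623) in CD4+ Naive T, without overlap (log2 difference 0.37, SE 0.04, adjusted p = 4.44e-15 by edgeR). mt-Nd5 was at 733 to 948 CPM (median 775) against 522 to 660 CPM (median 597), again without overlap (0.49, SE 0.06, adjusted p = 2.46e-12). Both are membrane subunits of complex I and both were higher in 7 of 7 mice. mt-Nd6 (0.43), mt-Nd4 (0.36), mt-Nd2 (0.21), mt-Cytb (0.19), mt-Nd4l (0.19) and mt-Co1 (0.14) followed, with adjusted p of 9.46e-08 (mt-Nd2) to 0.0394 (mt-Nd4l) in edgeR, and mt-Atp8 did not pass (0.06, adjusted p = 0.0804). The call of mt-Nd4l was lost in 8 of 15 other settings, and no other mt call was lost in any.

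Of 37 nuclear members of complex I, 6 were higher and 12 lower in B cells. The counts per complex are read against the 24.3% of all genes tested that were higher and the 23.8% that were lower. Ndufs8, an iron-sulfur subunit, was at 109 to 154 CPM (median 128) in B cells and 65.3 to 102 CPM (median 85.5) in CD4+ Naive T, without overlap (log2 difference 0.62, SE 0.10, adjusted p = 1.15e-07 by edgeR). Ndufv3, a small subunit beside the NADH-binding site, was at 127 to 185 CPM (median 157) in B cells and 226 to 300 CPM (median 258) in CD4+ Naive T, also without overlap (-0.74, SE 0.08, adjusted p = 1.38e-13). Ndufb8 (0.28) and Ndufb1-ps (0.26) were higher, and Ndufa10 (-0.50) and Ndufa2 (-0.27) were lower. GENCODE M21 lists Ndufb1-ps as a noncoding RNA gene at a bidirectional promoter and not as protein-coding. Complex V had 1 member higher, Atp5d (0.19), and 7 of 16 lower, with Atp5mpl (-0.44), Atp5h (-0.39) and Atp5j2 (-0.37), all parts of its membrane and stalk portions, lower in 7 of 7 mice. Complex III had 3 of 8 lower, Uqcrq (-0.30), Uqcrh (-0.27) and Uqcr10 (-0.18), and complex IV had Cox8a (0.25), Cox5b (0.20) and Cox5a (0.16) higher and Cox7a2l (-0.61), Cox7c (-0.24) and Cox4i1 (-0.16) lower. The calls of Uqcr10 and Cox5a were lost in 10 and 9 of 15 other settings.

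CD4+ Treg cells, which restrain other T cells and depend on Foxp3, were compared with CD4+ Naive T. Of 9 mt members 2 were lower (5.73% of all genes tested) and 0 higher (5.82% of all), mt-Nd1 (-0.23, adjusted p = 0.00183) and mt-Atp8 (-0.16, adjusted p = 0.00369 by edgeR). Neither passed by total UMIs, by which 0 mt members were called and 11 nuclear members were higher and 0 lower (8.64% and 3.48% of all genes tested). With TMM, of 76 nuclear members 2 were higher, both of complex V: Atp5g2, another gene for the c subunit (0.58, SE 0.17, adjusted p = 0.0148, higher in 5 of 6 mice), and Atp5j2 (0.30, adjusted p = 0.00932). Atp5g2 shares 40.2% of its words with other genes. Cox8a was lower (-0.24, adjusted p = 0.00636), at 480 to 710 CPM (median 663) against 663 to 837 CPM in CD4+ Naive T, and did not pass by total UMIs (-0.12) or in 4 more of the 15 other settings.

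**Figure D3:**
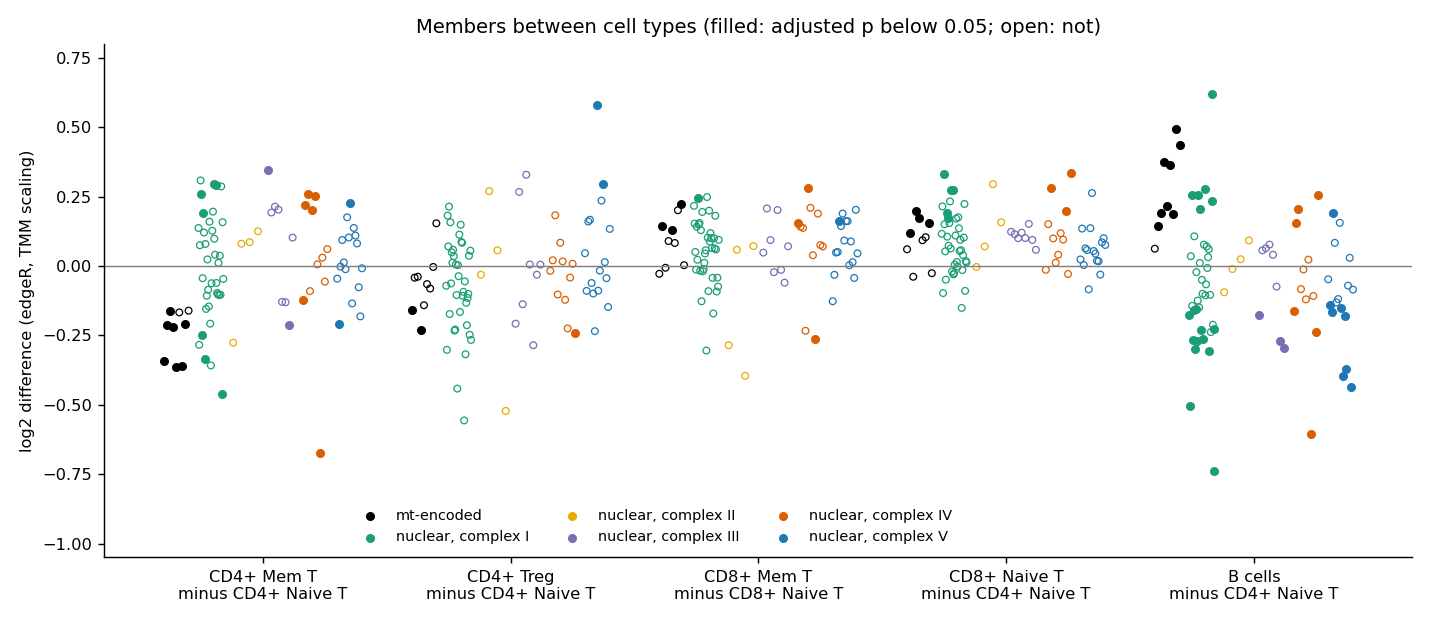
Log2 differences of the tested members between cell types (edgeR, TMM scaling), grouped as mt members and nuclear members of complexes I to V. Filled points passed the threshold; 7 mt points lie below 0 and are filled for CD4+ Mem T, and 8 lie above 0 and are filled for B cells.

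Subsets of CD4 T cells were compared with Resting Treg cells, the reference fixed for these tests, over 4 to 7 mice; 70 nuclear and 9 mt members were tested among 1875 genes. The 4 comparisons share their reference, so their values are not independent. The nuclear share of UMIs was 2.05% to 2.36% (median 2.26%) in Resting Treg and higher in each mouse for Act. Treg (2.21% to 2.64%, 6 of 6 mice), Tfh (2.10% to 2.67%, 5 of 5) and Th17 (2.43%, 2.48%, 2.55% and 3.13%, 4 of 4). Early Act. CD4 cells were at 1.92% to 2.33% and higher in 3 of 7. By total UMIs the median log2 difference of nuclear members was 0.18 in Act. Treg, 0.24 in Tfh and 0.19 in Th17. Over all genes tested it was 0.25, 0.20 and 0.17, so the typical gene was higher as well. With TMM the nuclear medians were -0.04, 0.06 and 0.03, against 0.03, 0.02 and 0.01 over all genes. Tfh cells, which help B cells, also had a higher mt share in 5 of 5 mice (1.58%, 1.58%, 1.65%, 1.81% and 1.90%). Ribosomal protein genes took 33.5% ± 0.654 of UMIs in Resting Treg, 24.5% ± 1.34 in Act. Treg, 27.5% ± 1.18 in Tfh, 26.1% ± 1.52 in Th17 and 32.9% ± 0.813 in Early Act. CD4 cells, and their part in these shares was not tested. Of 3 tested genes of the RNA quality list, Hbb-bs (log2 difference -1.37, adjusted p = 0.00022 by edgeR) and Jun (-1.37, adjusted p = 0.0066) were lower in Early Act. CD4, Hbb-bs in Act. Treg (-0.96, adjusted p = 0.0119), Jun in Tfh (-1.57, adjusted p = 0.0194) and 0 in Th17. The medians of the 3 were -1.37, -0.71, -0.42 and -1.14 in that order, and their part in the member calls below was not tested.

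In Act. Treg cells 2 nuclear members were higher and 2 lower (9.92% and 10.9% of all genes tested), and 1 mt member was lower. By total UMIs 12 nuclear members were higher and 1 lower (20.3% and 6.99% of all), and 2 mt members were higher. Atp5g3 was higher in 6 of 6 mice (log2 difference 0.34) and Atp5o, a stalk subunit of complex V, was lower (-0.48, adjusted p = 0.0234 by edgeR), though not by total UMIs (-0.26, adjusted p = 0.233), and each call was lost in 7 of 15 other settings. mt-Atp8 was lower (-0.22, adjusted p = 0.0123) but stood at 0.00098 by total UMIs, and its call was also lost without mouse 36 (adjusted p = 0.077), without mouse 97 (0.0753) and in cells of 2000 to 4000 UMIs (-0.033). In Th17 cells, which make interleukin 17, 3 nuclear members were higher and 2 lower (6.56% and 10.1% of all), against 9 and 1 by total UMIs (10.6% and 6.29% of all), where 0 mt members passed. Uqcr10 was at 152 to 430 CPM (median 292) in Resting Treg and 481 to 669 CPM (median 509) in Th17, without overlap (0.92, SE 0.21, adjusted p = 0.00102 by edgeR). Cox5a was higher (0.49, lost in 9 of 15 other settings), Ndufa6 was lower (-0.53, by total UMIs -0.37 with adjusted p = 0.127), and mt-Nd4l was lower (-0.86, adjusted p = 0.0358) with a call lost in 10 of 15 other settings.

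In Tfh cells 4 nuclear members were higher and 1 lower (6.03% and 10.2% of all genes tested): Uqcr10 (0.57, lost in 10 of 15 other settings), Cox6c (0.41, lost in 8), Cox8a (0.39) and Ndufa4, named for complex I and since assigned to complex IV (0.38, lost in 12), against Cox7a2l (-0.46). mt-Nd1 was the only mt member that passed, higher in 5 of 5 mice (0.28, adjusted p = 0.047 by edgeR). Its call was lost in 8 of 15 other settings, and by total UMIs 6 mt and 11 nuclear members were higher and 0 lower (12.3% and 6.61% of all). In Early Act. CD4 cells 4 nuclear members were higher and 4 lower (12.3% and 12.5% of all), against 5 and 2 by total UMIs (13.3% and 11% of all). Atp5g1 (0.52) and Atp5g3 (0.38), both genes for the c subunit, rose, as did Ndufb2 (0.63) and Cox8a (0.27), while Atp5c1, the rotor subunit gamma (-0.46), Ndufa3 (-0.42), Ndufa6 (-0.39) and Atp5h (-0.32) fell. By total UMIs Ndufa3 (-0.39, adjusted p = 0.0591) and Atp5h (-0.29, adjusted p = 0.0853) did not pass. The calls of Cox8a and Atp5h were lost in 11 of 15 other settings, those of Atp5g1, Ndufb2 and Ndufa3 in 8 and that of Ndufa6 in 7. mt-Cytb was lower in 7 of 7 mice (-0.20, adjusted p = 0.0204 by edgeR, lost in 6).

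Across the 9 comparisons of types and subsets, 47 of 76 nuclear members were called at least once (61.8%), 29 in none, and 7 in both directions. Of all 6122 genes of the cell type fit 3646 were called at least once (59.6%). These comparisons share control sums and are listed as values. Cells with a subset name carry a cell type name as well, so the same cells can enter comparisons of types and of subsets. Calls in both are therefore not calls in separate populations. Cox7a2l, which joins complexes III and IV into a supercomplex, was called in 6 and lower in each of the 6. Cox8a, the smallest subunit of complex IV, was called in 7 and higher in 6 of them. Each subset against Resting Treg, the shared reference, was among the higher calls. The Cox8a call was lost in 11 of 15 other settings in Early Act. CD4, 5 in CD4+ Treg, 4 in Tfh, 2 in Th17, 1 in Act. Treg and 0 in B and CD8+ Naive T. Their promoters are printed because these complex IV genes were called most often and mostly in opposite directions (250 bases before to 50 after the start, RefSeq GRCm38.p6, 5′ to 3′, with capitals for a motif match). The Cox7a2l window is chr17:83514284-83514583 on the minus strand and the Cox8a window is chr19:7217567-7217866 on the minus strand:
Cox7a2l: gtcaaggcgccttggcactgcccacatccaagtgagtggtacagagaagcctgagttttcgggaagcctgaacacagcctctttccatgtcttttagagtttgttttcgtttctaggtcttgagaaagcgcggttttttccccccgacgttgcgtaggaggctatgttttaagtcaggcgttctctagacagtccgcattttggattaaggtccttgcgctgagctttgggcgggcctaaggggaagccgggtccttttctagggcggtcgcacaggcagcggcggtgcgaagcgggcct
Cox8a: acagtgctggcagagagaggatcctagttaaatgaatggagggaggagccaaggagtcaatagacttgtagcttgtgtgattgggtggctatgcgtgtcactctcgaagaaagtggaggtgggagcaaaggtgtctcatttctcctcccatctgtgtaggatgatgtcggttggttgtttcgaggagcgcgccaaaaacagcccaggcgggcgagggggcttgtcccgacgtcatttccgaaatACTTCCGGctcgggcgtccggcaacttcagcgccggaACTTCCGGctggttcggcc
The motifs searched on both strands were CGCATGCG (NRF1), CCGGAAGT (ETS factors, to which GABP belongs) and AAGATGGC (YY1). Cox8a holds the reverse complement of the ETS letters, ACTTCCGG, at 2 places and this RefSeq window of Cox7a2l holds none of these letters. That window lies inside the GENCODE gene, with its upstream end 2747 bases from the gene's 5′ end, and the sequence at that end was not analysed here. RefSeq windows were found for 63 of the 79 nuclear members, 68 windows in all. The NRF1 letters were in 13.2% of them against 1.87% of all 32851 windows, the ETS letters in 7.35% against 3.89%, and the YY1 letters in 13.2% against 2.75%. A match describes the letters and not binding.

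Cox7a2l lies at chr17:83501918-83517330 (GRCm38, minus strand). It ranged over 446 to 571 CPM (median 542) in CD4+ Naive T, 287 to 370 CPM (median 343) in CD4+ Mem T and 305 to 379 CPM (median 338) in B cells. Neither the memory nor the B cell values overlapped the naive values, and each of 7 mice was lower in both (log2 differences -0.67, SE 0.08, adjusted p = 3.9e-11, and -0.61, SE 0.06, adjusted p = 4.82e-13, by edgeR). CD8+ Naive T cells were at 517 to 626 CPM (median 541) and CD8+ Mem T at 374 to 591 CPM (median 460), lower in 5 of 6 mice. CD4+ Treg cells were at 341 to 573 CPM and did not pass.

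Among subsets Cox7a2l was at 459 to 859 CPM (median 627) in Resting Treg and 270 to 424 CPM (median 347) in Act. Treg, without overlap (-0.87, SE 0.14, adjusted p = 8.79e-06 by edgeR). Th17 cells were at 300 to 490 CPM (-0.82, adjusted p = 0.00029) and Tfh cells at 401 to 547 CPM (-0.46, adjusted p = 0.0255), lower in 4 of 4 and 5 of 5 mice. Early Act. CD4 cells were at 410 to 584 CPM and did not pass. The CD4 memory call held under each of the 15 other settings, with values from -0.72 to -0.46. The CD8 memory call was lost without mouse 1 (adjusted p = 0.0717), without mouse 7 (0.149) and without the mouse term (0.0837), and the Tfh call in 7 of 15 settings, among them total UMIs (-0.28, adjusted p = 0.18), DESeq2 (0.157) and leaving out mouse 1, 36, 4 or 7 (0.0537 to 0.173).

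Cox8a lies at chr19:7215153-7217616 (GRCm38, minus strand). It was higher than in CD4+ Naive T in CD8+ Naive T and in B cells (802 to 1004 CPM, median 869, higher in 7 of 7 mice), while CD4+ Mem T (642 to 872 CPM) overlapped the naive range and did not pass. Among subsets it was at 692 to 945 CPM (median 846) in Resting Treg and at 878 to 1453 CPM (median 1059) in Act. Treg, 910 to 1179 CPM (median 1073) in Tfh, 1081 to 1430 CPM (median 1253) in Th17 and 836 to 1231 CPM (median 1026) in Early Act. CD4 cells. It was higher in every mouse of each of these 4 subsets than in Resting Treg of that mouse, and only Th17 lay wholly above the reference (log2 difference 0.59, SE 0.12, adjusted p = 0.0003 by edgeR). All 4 use the same reference, and Cox8a was lower in CD4+ Treg than in CD4+ Naive T. Whether Resting Treg was low rather than the subsets high was not tested.

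**Figure D4:**
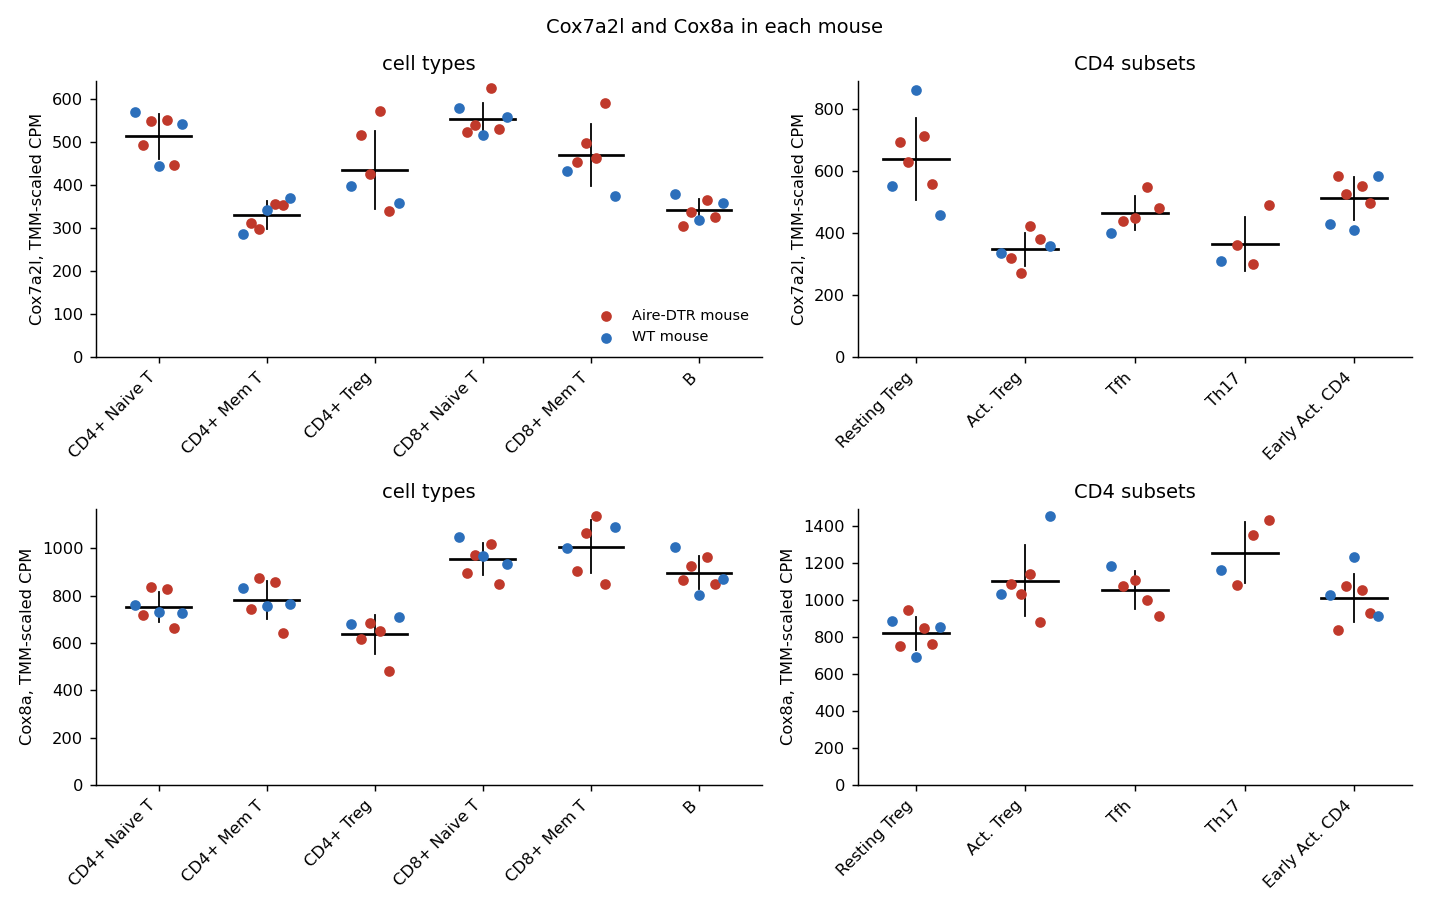
TMM-scaled CPM of Cox7a2l (top) and Cox8a (bottom) in each mouse, by cell type (left) and CD4 subset (right); bars are mean and SD. Cox7a2l in CD4+ Mem T and B cells (287 to 379 CPM) lies below CD4+ Naive T (446 to 571 CPM), and Cox8a in CD8+ Naive T lies above it.

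Complex II, the member of the chain that is also an enzyme of the citrate cycle, gave no call. None of Sdha, Sdhb, Sdhc and Sdhd passed edgeR's test in the 5 comparisons of cell types. Of all genes tested there, 3.76% (lower, CD8+ Mem T) to 24.3% (higher, B cells) were called in a direction. With 4 genes, no call is not read as a trait of complex II. Sdha in CD4+ Mem T against CD4+ Naive T came nearest (-0.28, SE 0.10, adjusted p = 0.0503). Sdhc and Sdhd had too few UMIs for the subset tests.

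Related mitochondrial genes outside the rule were counted on the same fits. In CD4+ Mem T against CD4+ Naive T, where 11.2% of all genes were higher and 10.6% lower, 2 of 8 tested electron carriers and transporters were higher and 0 lower (median 0.08, all genes -0.01), 0 of 26 assembly factors and 0 of 9 genes of mitochondrial DNA upkeep and biogenesis passed, and 1 of 15 citrate cycle genes was higher. The uncoupling protein gene Ucp2 was higher (0.38, adjusted p = 5.77e-07 by edgeR). In B cells, where 24.3% of all genes were higher and 23.8% lower, 3 of 15 citrate cycle genes were higher and 2 lower, with fumarase (Fh1) 1.66 higher (SE 0.14, adjusted p = 6.08e-17) and Pdha1, a subunit of pyruvate dehydrogenase, 0.92 lower (-0.92, adjusted p = 6.52e-11), and 1 of 26 assembly factors was higher and 4 lower. The adenine nucleotide carrier Slc25a4 was higher in CD8+ Naive T than CD4+ Naive T (0.87, SE 0.09, adjusted p = 1.84e-13). Of 3 growth genes tested, 2 were higher and 1 lower in CD4 memory cells (median 0.51). In CD8 memory cells 2 of the 3 were higher and 0 lower (median 0.27), where 5.78% of all genes were higher and 3.76% lower. Myc rose in both CD4 (0.79) and CD8 memory cells (0.82), while Npm1 fell in CD4 (-0.26) and rose in CD8 memory cells (0.27).

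Nodes were compared within mice to ask whether draining the uterus went with a different level. No member passed between udLN and brLN. edgeR called 0 of 85 members in B cells (0.0479% of all genes tested), 0 of 84 in CD4+ Naive T (0.119% of all) and 0 of 85 in CD8+ Naive T (0.124% of all), with 4, 0 and 2 members at an unadjusted p below 0.05, and DESeq2 called 0 in each. The mt share in B cells was 1.73% in udLN and 1.71% in brLN on average, with a difference of 0.0198 percentage points (SD 0.0548, higher in udLN in 4 of 7 mice), and the nuclear share was 1.97% and 1.98%. In CD8+ Naive T the nuclear share was lower in udLN in 5 of 6 mice (2.07% against 2.12%, mean difference -0.0507, SD 0.0574). The smallest adjusted p was that of Ndufb11, a complex I subunit, in B cells (0.34, SE 0.09, adjusted p = 0.552 by edgeR).

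Genotypes were compared with pool as a term, in each node apart, since the series asks what follows when Aire-expressing cells are depleted. In brLN, B cells had an mt share of 1.71% ± 0.0295 in 4 Aire-DTR mice and 1.73% ± 0.138 in 3 WT mice (SD), and a nuclear share of 2.01% ± 0.0795 and 1.95% ± 0.0949. CD4+ Naive T cells had 1.47% ± 0.0458 and 1.48% ± 0.107 (mt), and 2.09% ± 0.101 and 2.03% ± 0.0929 (nuclear). CD8+ Naive T cells had 1.52% ± 0.0457 and 1.51% ± 0.109 (mt), and 2.10% ± 0.0927 and 2.15% ± 0.0514 (nuclear). The ranges of the genotypes overlapped in each of these. CD4+ Mem T cells of brLN had a nuclear share of 2.18% to 2.45% in 4 Aire-DTR mice and of 2.30% and 2.65% in 2 WT mice, and mouse 6 was left out there for having under 20 cells. In udLN, T cells of WT mouse 97 were too few, so 4 were compared with 2 mice.

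edgeR called 0 of 85 members between genotypes in each of the 7 comparisons, as did DESeq2. 1 mt member passed in CD4+ Mem T of brLN when cells of 2000 to 4000 UMIs were used. In CD8+ Naive T of udLN, leaving out mouse 1 left mouse 6 as the only WT mouse, so that fit is not read. Among all genes tested edgeR called 0.058% (B cells), 0.0184% (CD4+ Naive T), 0.0297% (CD8+ Naive T) and 0.0924% (CD4+ Mem T) in brLN, and 0% (B cells), 0.0828% (CD4+ Naive T) and 0.0756% (CD8+ Naive T) in udLN. Members at an unadjusted p below 0.05 by edgeR numbered 1, 5, 6 and 6 in brLN and 1, 2 and 5 in udLN in the same order. In brLN CD4+ Naive T, Sdhd (0.67, SE 0.23, adjusted p = 0.876) and Atp5g1 (0.41, SE 0.14, adjusted p = 0.876) came nearest by edgeR. Cox6c in CD4+ Mem T stood at -0.46 (SE 0.16, adjusted p = 0.825). In udLN, Ndufs1, which had 16.4 to 50.2 CPM in CD4+ Naive T over both nodes, had the largest estimate (1.29, SE 0.55, adjusted p = 0.881). mt-Nd6 in CD8+ Naive T of udLN (0.63, SE 0.24, adjusted p = 0.633) had the smallest adjusted p of any member between genotypes. The median SE of a log2 difference in brLN was 0.06 to 0.12 for mt and 0.12 to 0.25 for nuclear members, so small differences could not be detected and the genotypes are not shown to be alike.

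**Figure D5:**
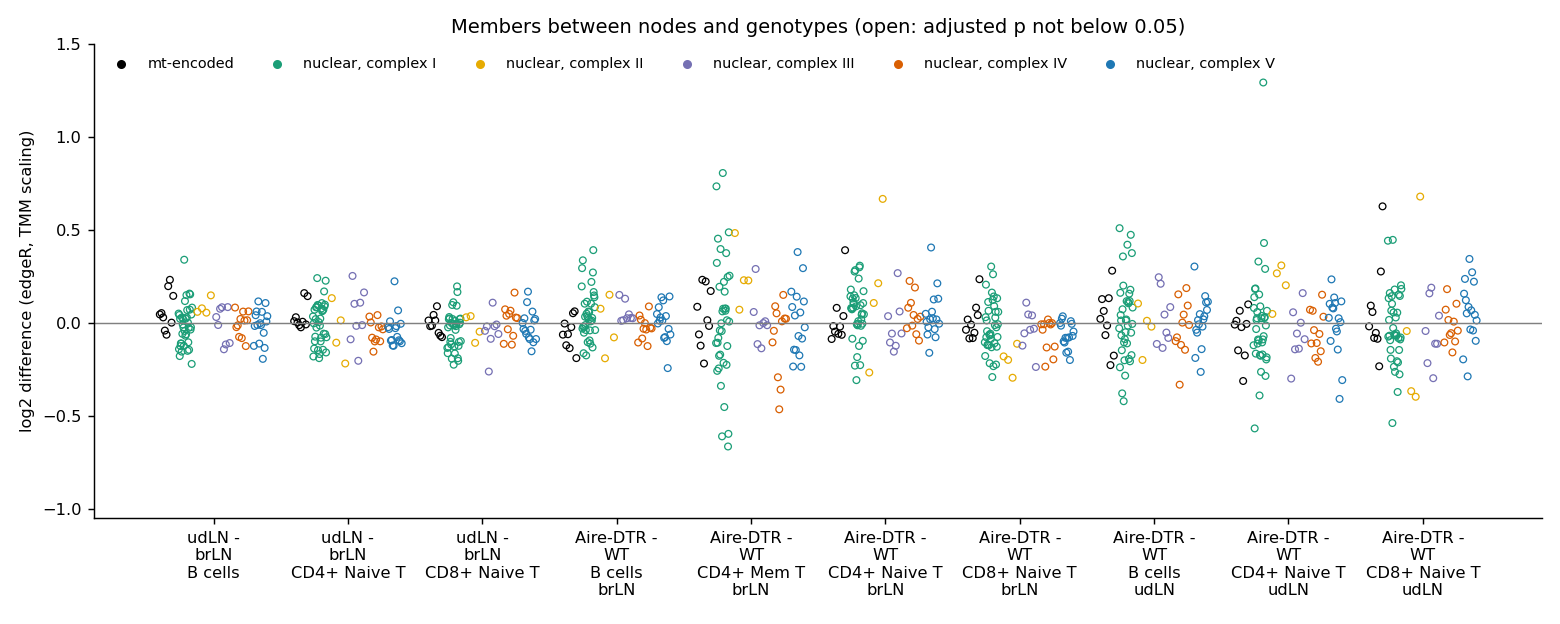
Log2 differences of the tested members between nodes (first 3 groups, udLN minus brLN) and between genotypes (Aire-DTR minus WT in brLN, then udLN), by edgeR with TMM scaling and coloured as mt members and complexes I to V. Every point is open, since 0 members passed, and the spread is widest where cells were few, up to 1.29 for Ndufs1.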

How the data were processed

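Droplet 3′ sequencing libraries of lymph node cells from 6 wells were analysed. The deposited matrix holds UMI counts per cell and gene, and the submitters' processing notes name Seurat, Scanpy 1.7.0, kallisto 0.46.1 and bustools 0.40.0 with build GRCm38 as what the authors used. Sources used here give neither the role of each tool nor the cell filters nor how types were named. Deposited tables of scaled values hold 0 or 1 member and were not used. Repeated rows were counted once. No further doublet removal was made, and no cell was filtered out. Counts were summed per mouse and cell type (at least 20 cells) or CD4 subset (at least 10), in sums of 23 to 468 cells and 58855 to 1473827 UMIs for types. After filterByExpr and TMM scaling, edgeR 4.0.16 in R 4.3.3 gave quasi-likelihood tests with mouse as a block between types, subsets and nodes, and pool as a term between genotypes. Adjusted p is Benjamini-Hochberg over all genes tested, below 0.05. The SE was derived as |log2 difference| divided by √F. DESeq2 1.42.0 was an alternative, beside other scalings, filters and terms, a window of 2000 to 4000 UMIs per cell, and leaving out each mouse. Scripts were tested on simulated counts. Members, lists and comparisons were chosen with earlier results of these data known. Named in the text are all tested mt members and, per comparison of types or subsets, up to 3 nuclear members per complex and direction with the smallest p, and for nodes and genotypes members with the smallest p. Atp5h, Cox7c, Cox5a and Atp5o were also checked for shared sequence, and list genes were named after their values were seen. Sequences and coordinates are from RefSeq GRCm38.p6 promoters and GENCODE M21, matched by symbol. Proteins were not analysed here.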

Additional observations from a re-analysis of the deposited data

Results flagged for a closer look

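Among 22 groups of 4 to 7 mice whose mt or nuclear share was examined, 2 had a mouse far from the others, and chance flags about 1 in 20 groups. In CD4+ Treg cells the nuclear share of mouse 8 was 1.927%, and the nearest of the other 5 mice was at 2.189%. In Th17 cells the nuclear share of mouse 1 was 3.135%, and the nearest of the other 3 mice was at 2.546%.

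The memory difference of the CD4 lineage minus that of the CD8 lineage passed edgeR's test for 13 members, each negative on the log2 scale. Among mt members these were mt-Nd4l (-0.5615), mt-Nd2 (-0.4924), mt-Nd5 (-0.432), mt-Co1 (-0.3552), mt-Atp8 (-0.3147), mt-Nd1 (-0.3089) and mt-Cytb (-0.1559). Among nuclear members these were Cox7a2l (-0.4123), Atp5mpl (-0.3839), Ndufa6 (-0.3189), Atp5h (-0.2967), Ndufa3 (-0.2881) and Cox4i1 (-0.2788). By total UMIs mt-Nd2 alone of these stayed negative past the threshold, and mt-Cytb became positive. The contrast was chosen after the values were seen.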

How the results depend on the processing

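Counts of called members were recomputed under other settings, and counts stayed within 1.5 times the reported one in 476 cases and not in 110. With scaling by total UMIs, added after seeing the data, nuclear calls became 40 (CD4 memory), 11 (CD4 Treg), 3 (CD8 memory), 4 (CD8 naive), 13 (Act. Treg), 11 (Tfh), 10 (Th17) and 23 (CD4 against CD8 memory), and mt calls 2 (CD4 memory), 0 (CD4 Treg), 1 (CD8 memory), 2 (Act. Treg), 6 (Tfh), 0 (Th17) and 2 (CD4 against CD8 memory). It reversed in CD4 memory Uqcrh (0.0026), Cox4i1 (0.092), Atp5b (0.0074), mt-Co1 (0.0013), mt-Nd5 (0.0042) and mt-Cytb (0.052), in Act. Treg mt-Atp8 (0.00098), and between the memory differences Ndufa3 (0.00055), Cox4i1 (0.011) and mt-Cytb (0.13). This follows from the shift of all genes given with the results. DESeq2's size factors in edgeR gave 5 (CD4 Treg) and 8 (CD8 memory) nuclear calls and 1 mt call (CD4 Treg). DESeq2 gave 5 (CD4 Treg), 9 (CD8 memory), 2 (Act. Treg), 2 (Tfh), 3 (Th17) and 2 (Early Act. CD4) nuclear calls and 0 mt calls (Th17). No low-count filter gave 6 (CD4 Treg), 2 (CD8 memory), 1 (Act. Treg), 1 (Tfh), 3 (Th17), 1 (Early Act. CD4) and 2 (CD4 against CD8 memory) nuclear calls, and 5 (CD4 Treg), 0 (CD8 memory), 0 (Tfh), 3 (Th17) and 0 (Early Act. CD4) mt calls. No mouse term gave 1 (CD8 memory), 4 (CD8 naive), 2 (Tfh) and 2 (CD4 against CD8 memory) nuclear calls, and 4 (CD4 memory), 0 (CD4 Treg), 1 (CD8 memory), 1 (CD8 naive), 0 (Th17) and 0 (Early Act. CD4) mt calls. Cells of 2000 to 4000 UMIs gave 8 (CD4 memory), 1 (CD4 Treg), 0 (Tfh), 1 (Th17) and 1 (Early Act. CD4) nuclear calls, and 3 (CD4 memory), 0 (Act. Treg), 0 (Th17), 0 (Early Act. CD4) and 1 (genotype, CD4 memory, brLN) mt calls, and reversed Ndufa4 in Tfh (-0.041). Keeping the repeated cells gave 8 (CD8 memory), 3 (Tfh) and 5 (Early Act. CD4) nuclear and 0 (Tfh) and 0 (Th17) mt calls. Leaving mt genes out of the totals gave 3 mt calls in Th17. The cause of these changes was not tested. Leaving out each mouse in turn gave nuclear calls of 10 to 19 (CD4 memory, 10 without mouse 1 or 7), 0 to 4 (CD4 Treg, 0 without mouse 7), 1 to 9 (CD8 memory, 2 without mouse 1 or 36, 9 without 6, 1 without 7, 8 without 8), 2 to 5 (Act. Treg, 2 without mouse 36), 0 to 3 (Tfh, 0 without mouse 1 or 36, 1 without 7, 2 without 8, 3 without 4, 6 or 97), 3 to 5 (Th17, 3 without mouse 7), 2 to 6 (Early Act. CD4, 2 without mouse 7, 4 without 1 or 4, 5 without 36, 6 or 97) and 2 to 6 (CD4 against CD8 memory, 2 without mouse 4, 3 without 36 or 7). The mt calls were 1 to 3 (CD8 memory, 1 without mouse 36 or 7), 0 to 2 (Act. Treg, 0 without mouse 36 or 97, 2 without 4), 0 to 1 (Tfh, 1 only without mouse 97), 0 to 2 (Th17, 0 without mouse 1, 36 or 7, 2 without 4, 6 or 8) and 0 to 1 (Early Act. CD4, 0 without mouse 36, 6 or 7). Counts between genotypes that rested on 1 WT mouse are not given. Subset counts thus rest on single mice. No paired analysis was possible because the labels' replicate numbers mark wells, each with several mice, so these numbers pair no groups; sums of types, subsets and nodes were paired by mouse instead. Without the pool term no genotype count changed, and shares stayed within 1 SD in 210 cases and not in 3. Sums of as few as 10 cells limit the subsets.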
